A study of Mus musculus with 4 samples.

Results

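Insertions of 40 bp or more at Cas9-induced breaks were examined in 4 amplicon libraries of E14 mouse embryonic stem cells (mESCs), a male line of strain 129/Ola. All cells had been lipofected with pX plasmids, which encode Cas9 and a guide RNA, and selected with puromycin or for GFP. A single guide was given, either at Site 7 on chromosome 16 (2 libraries) or at Site 9 in Prickle2 on chromosome 6 (2 libraries), and genomic DNA was collected from pools of cells 3 to 7 days later. There was no unedited library, so the background of the assay was not measured. An allele is a distinct aligned read sequence with its number of reads. An allele was taken as a member where the reference row of its deposited alignment held an internal gap run of at least 40 bases, with or without a deletion. This rule found 2833 of 76510 alleles, namely 637 and 918 in replicates 1 and 2 of Site 7 and 759 and 519 in replicates 1 and 2 of Site 9, with 12763 reads in all.

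Cas9 leaves a break with nearly blunt ends, which end joining repairs with small deletions and insertions. Longer insertions are known to arise when other DNA is joined into the break: copies of the sequence beside it, fragments of the genome or of the transfected plasmid, or DNA copied from RNA. The plasmid sequence was not among the sources used here and was not searched.

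The targets are shown first because every position is given relative to the cut. Capitals mark the 20 bases matched by the guide, in the plus strand of build mm9. The Site 7 window is chr16:92520155-92520214 and the Site 9 window is chr6:92370092-92370151.
Site 7: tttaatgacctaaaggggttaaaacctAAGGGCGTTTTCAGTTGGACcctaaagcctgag
Site 9: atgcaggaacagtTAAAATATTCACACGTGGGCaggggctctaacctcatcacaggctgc
The Site 7 guide reads the minus strand, with the PAM AGG, and the cut falls between chromosome 16 bases 92520184 and 92520185. The labels name this locus Runx1, and the annotation places the cut inside Clic6, within an intron (gene ENSMUSG00000022949.3, on the plus strand). The Site 9 guide reads the plus strand, also with the PAM AGG, and the cut falls between chromosome 6 bases 92370121 and 92370122. This position is intronic to Prickle2 (gene ENSMUSG00000030020.7, on the minus strand), with an exon beginning 16 bp to the right. Prickle2 encodes a planar cell polarity protein and Clic6 a member of the chloride intracellular channel family.

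Insertions of 40 bp or more made up 0.698% of modified reads in Site 7 replicate 1 (95% Wilson interval 0.672 to 0.725) and 0.466% in the other replicate (0.446 to 0.488). The Site 9 shares were 1.39% in replicate 1 (1.35 to 1.44) and 1.15% in replicate 2 (1.11 to 1.198). Both Site 9 libraries were above both Site 7 libraries. The means were 0.582% ± 0.164 (SD, n = 2) and 1.27% ± 0.170 (SD, n = 2), a ratio of 2.19 (exact two-sided permutation test, p = 0.333). That p is the smallest that 2 libraries against 2 can give, so no comparison of the sites below could pass a threshold of 0.05. Modified reads were 96.5% and 96.4% of aligned reads at Site 7 and 64.2% and 60.1% at Site 9. Over all aligned reads, with members that the caller had left as unmodified included, the mean shares were 0.650% and 0.901%, and the ratio fell to 1.39.

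Most members were rare. Of the 2833 alleles, 1994 were seen in a single read. The 1901 distinct inserted sequences were joined into 1311 families of near-identical sequences, within an edit distance of 5% of the longer sequence. There were 262 and 633 families in the replicates of Site 7 and 267 and 166 in those of Site 9. The replicates of Site 7 differed in how the reads were spread over them. Alleles with 10 reads or more held 74.5% of the insertion reads in Site 7 replicate 1 and 14.8% in replicate 2, against 81.7% and 79.9% at Site 9. No family took up a large part of a library, the most abundant holding 80, 30, 113 and 110 reads in the same order, or 2.57%, 1.41%, 2.55% and 3.57% of insertion reads.

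The insertions lay at the cut. The commonest position was the cut itself in all 4 libraries, with 48.0% and 43.7% of insertion reads at Site 7 and 36.3% and 29.6% at Site 9. Within 3 bp of the cut lay 89.8%, 82.3%, 86.3% and 73.0% of reads, and within 10 bp 98.6%, 97.3%, 94.6% and 93.9%.

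The inserted sequences were compared with the own amplicon, with the other site's amplicon and with the mouse genome, and each insertion was assigned to a single source. An exact run of at least 20 bp shared with the amplicon was called a copy, direct where it read in the same direction as the amplicon around it and inverted otherwise. A genome match was an alignment of at least 30 bp with at least 95% identity. Sources at the cut made up more of the insertions at Site 9 than at Site 7. Copies of the amplicon, patchworks of short amplicon stretches and segments from within 5 kb of the cut together held 6.98% and 4.51% of insertion reads at Site 7 and 30.02% and 35.5% at Site 9. The means were 5.74% ± 1.75 and 32.8% ± 3.87 (SD, n = 2 each), a ratio of 5.70 (exact permutation test, p = 0.333). As shares of modified reads, without insertion reads that the caller had left as unmodified, these local sources held 0.0493% and 0.0197% at Site 7 and 0.432% and 0.403% at Site 9. The length of the merged read bore on this comparison: in reads under 290 bp, which leave out most of the long unmatched insertions of Site 7, the local sources held 18.1% and 7.89% at Site 7 and 31.6% and 42.9% at Site 9, a ratio of 2.87. Insertions with no match, once patchworks and repeats were also taken out, held 82.5%, 84.8%, 61.4% and 52.7% of insertion reads. Of the 5 families with the most reads at each site, 3 had no match, with 76, 72 and 66 reads at Site 7 and 113, 101 and 96 reads at Site 9, and each of these was found in 1 library.

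**Figure D1:**
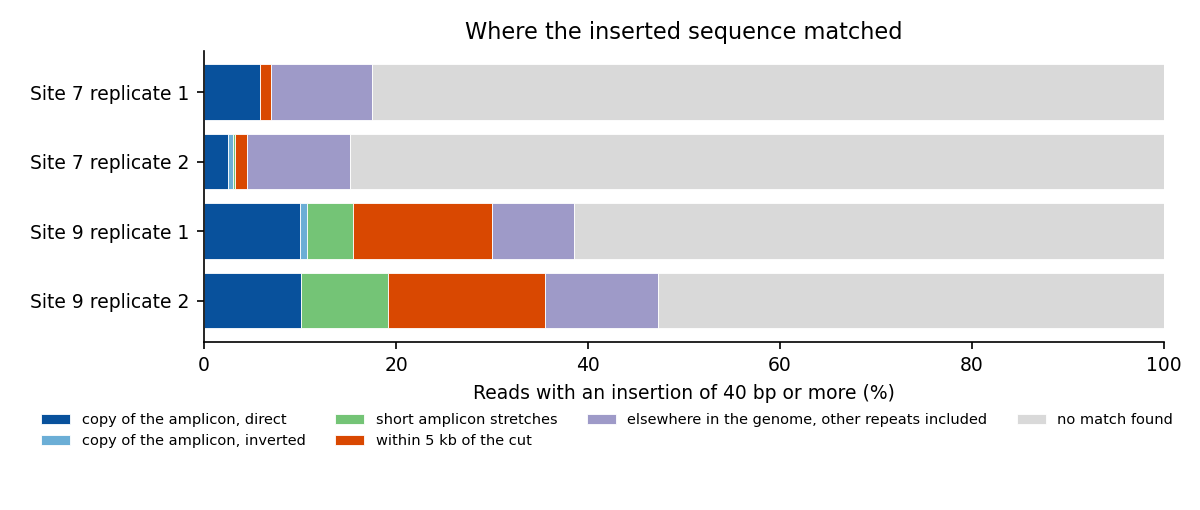
Share of insertion reads (x axis, percent) by the source of the inserted sequence in each library (1 bar per library); matches elsewhere are drawn with other repeats included, and the repeat next to the Site 9 cut is included in the class within 5 kb. The grey part, with no match found, covers 82.5% and 84.8% of the bar at Site 7 and 61.4% and 52.7% at Site 9.

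Direct copies of the amplicon are shown here because they carry the orientation result. Capitals mark bases in exact runs of at least 12 bp shared with the amplicon on either strand. The first Site 7 sequence holds the bases just right of the cut more than once, and the other Site 7 direct copy printed is a single stretch from the same side. Site 7 also had a family with 41 reads in replicate 1, not printed, that joins a stretch from the right of the cut to a stretch from its left. Another, with 9 reads in replicate 2, holds a stretch from the left. The Site 9 sequences join a stretch from the right of the cut to one from its left, or hold a single stretch from the left.
Site 7 family with 80 reads, direct, longest run chr16:92520185-92520211: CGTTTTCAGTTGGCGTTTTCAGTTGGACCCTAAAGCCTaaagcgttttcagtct
Site 7 family with 55 reads, direct, longest run chr16:92520190-92520230: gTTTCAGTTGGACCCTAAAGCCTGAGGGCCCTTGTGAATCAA
Site 9 family with 91 reads, direct, longest run chr6:92370123-92370146: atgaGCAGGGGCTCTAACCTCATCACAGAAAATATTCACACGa
Site 9 family with 56 reads, direct, longest run chr6:92370071-92370116: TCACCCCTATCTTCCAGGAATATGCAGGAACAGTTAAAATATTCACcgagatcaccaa
Site 7 family with 10 reads, inverted, longest run chr16:92520235-92520267: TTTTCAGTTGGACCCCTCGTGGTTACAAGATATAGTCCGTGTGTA
Direct copies outnumbered inverted copies in every library. Direct copies held 182 of 3108 insertion reads in Site 7 replicate 1 (5.86%) and 54 of 2130 in replicate 2 (2.54%). They held 444 of 4440 reads in Site 9 replicate 1 (10%) and 312 of 3085 in replicate 2 (10.1%). Both Site 9 values lay above both Site 7 values, with means of 4.196% ± 2.35 and 10.1% ± 0.0802 (SD, n = 2 each; exact permutation test, p = 0.333). This difference was not seen in reads under 290 bp, where direct copies held 15.7% and 4.40% at Site 7 and 11.4% and 11.5% at Site 9, so that the sites overlapped (exact permutation test, p = 1). Inverted copies came from a single family in each library that had any. They held 10 reads in Site 7 replicate 2 and 33 in Site 9 replicate 1, and 0 reads in the other libraries, which allows shares of up to 0.0965% of insertion reads in Site 7 replicate 1 and 0.0972% in Site 9 replicate 2. These values hold for runs of at least 20 bp only. Inverted runs of at least 15 bp were held by 0.225% and 0.563% of insertion reads at Site 7 and 0.743% and 3.01% at Site 9. Direct runs of that length were held by 5.89%, 4.04%, 16.4% and 21.7% in the same order. The longest inverted run was 33 bp at Site 7 and 28 bp at Site 9, against direct runs of up to 56 bp and 94 bp.

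A copy could come only from the amplicon around the cut, so its closeness to the cut is set by the definition. The side with most reads differed between replicates. In Site 7 replicate 1, 76.4% of the direct-copy reads had their longest run right of the cut, and in replicate 2, 72.2% had it left of the cut. In Site 9 replicate 1, 74.5% had it left, and in replicate 2, 54.5% had it right. A few abundant families weighed on these shares of reads. Families with 80 and 55 reads made most of the 139 right-hand reads of Site 7 replicate 1. Families with 91 and 61 reads made most of the 170 right-hand reads of Site 9 replicate 2. The sides were not counted by family. Few crossed the cut, at 0, 9, 22 and 22 reads. The most copied base lay 7 bp right of the cut in Site 7 replicate 1, 27 bp left in replicate 2, 18 bp left in Site 9 replicate 1 and 20 bp right in replicate 2. Tandem duplications of the flanking sequence, exact or nearly so, were rare, with 23, 2, 34 and 17 reads. The other site's amplicon was not found in the insertions: the longest run shared with it was 11 bp in each library.

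**Figure D2:**
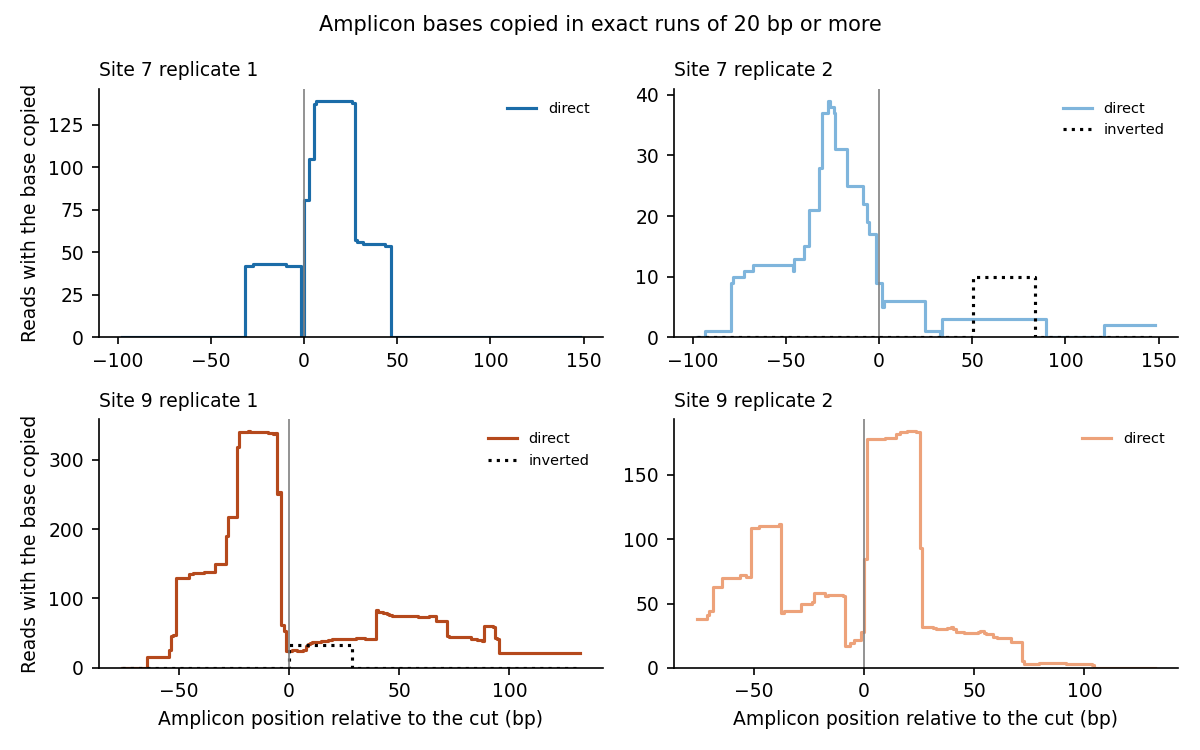
Number of insertion reads (y axis) in which each amplicon base (x axis, bp from the cut; negative to the left) was part of an exact run of at least 20 bp, in 1 panel per library; solid lines are direct and dotted lines inverted copies. The direct-copy peak lies 7 bp right and 27 bp left of the cut in the replicates of Site 7, and 18 bp left and 20 bp right in those of Site 9.

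At Site 9 a further set of insertions had no run of 20 bp but was built from shorter stretches of the amplicon, repeated within the insertion. The sequences below show the repetition, with capitals again marking bases in runs of at least 12 bp shared with the amplicon. Not all lay at the cut. The family with 47 reads lay 37 bp left of it with 15 bases deleted, and a family with 61 reads, not printed, lay there with 5 deleted.
Site 9 family with 110 reads: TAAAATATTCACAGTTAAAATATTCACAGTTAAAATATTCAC
Site 9 family with 79 reads: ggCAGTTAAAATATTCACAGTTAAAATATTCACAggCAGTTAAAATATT
Site 9 family with 47 reads: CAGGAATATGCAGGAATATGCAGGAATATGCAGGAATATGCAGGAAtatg
The first of these was the most abundant family of Site 9 replicate 2, and 100% of its 42 bases lay in such runs. Insertions with at least 50% of their bases in runs of this kind, and no other match, held 213 reads (4.80%) and 279 reads (9.04%) in the replicates of Site 9. At Site 7 they held 0 reads and 4 reads (0.188%). The means were 0.0939% ± 0.133 and 6.92% ± 3.003 (SD, n = 2 each; exact permutation test, p = 0.333). Among the insertions left without any match, 16.9% and 22.4% of reads at Site 9 also held some 10-bp word more than once, against 5.23% and 5.87% at Site 7.

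Genome segments from outside the amplicon but within 5 kb of the cut were found at both sites and were more frequent at Site 9. The sequences below are the Site 9 segments with the most reads among those that covered at least 90% of the insertion, together with an inverted and a right-hand segment. A segment with 57 reads in replicate 1 is not printed, as it matched 54 of the 63 inserted bases. It was inverted and lay right of the cut, at chr6:92371064-92371117. Capitals mark the bases that matched the genome at the position given, in build mm9.
chr6:92369785-92369861, plus strand, 76 reads, replicate 2: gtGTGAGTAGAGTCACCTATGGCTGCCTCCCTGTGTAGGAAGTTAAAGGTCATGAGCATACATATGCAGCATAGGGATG
chr6:92369475-92369539, plus strand, 70 reads, replicate 2: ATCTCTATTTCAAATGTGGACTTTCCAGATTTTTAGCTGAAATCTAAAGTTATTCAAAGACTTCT
chr6:92369425-92369465, plus strand, 54 reads, replicate 1: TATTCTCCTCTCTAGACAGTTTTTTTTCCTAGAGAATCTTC
chr6:92369740-92369834, plus strand, 45 reads, replicate 1: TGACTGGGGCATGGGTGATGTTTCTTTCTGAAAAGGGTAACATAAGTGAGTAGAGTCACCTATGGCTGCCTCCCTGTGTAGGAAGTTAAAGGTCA
chr6:92369744-92369786, minus strand, 40 reads, replicate 2: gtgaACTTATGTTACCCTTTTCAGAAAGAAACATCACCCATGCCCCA
chr6:92370505-92370585, plus strand, 31 reads, replicate 1: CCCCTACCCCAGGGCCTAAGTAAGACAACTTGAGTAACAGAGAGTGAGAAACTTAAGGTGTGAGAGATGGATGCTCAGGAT
The caller had left 28 of the 35 near-cut reads of Site 7 replicate 1 and 5 of the 28 of replicate 2 as unmodified. At Site 9 these were 34 of 558 and 89 of 245, so shares are given over all insertion reads. Such segments held 35 reads in Site 7 replicate 1 (1.13%) and 28 in replicate 2 (1.31%). At Site 9 they held 558 reads in replicate 1 (12.6%) and 245 in replicate 2 (7.94%). The lower Site 9 library was above the higher Site 7 library, with means of 1.22% ± 0.133 and 10.3% ± 3.27 (SD, n = 2 each; ratio 8.40, exact permutation test, p = 0.333).

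Segments inside the amplicon were left out by definition, and the rest came from close to it. At Site 9 there were 39 families, whose nearest edges lay 117 to 4274 bp from the cut, and 99.8% of their reads came from within 1000 bp. At Site 7 there were 13 families at 101 to 1393 bp, with 93.7% of the reads within 1000 bp. Of the Site 9 families, 32 lay left of the cut and 7 right of it, and 27 were direct and 12 inverted. Of the Site 7 families, 11 lay left and 2 right, and 11 were direct and 2 inverted. The segment was the whole insertion in 21 of the 39 families at Site 9, with no mismatch in 20 of them, and in 9 of the 13 at Site 7, all without a mismatch. All but 1 of the Site 9 families and all of the Site 7 families lay in introns, of Prickle2 and Clic6 respectively. The exception, with 2 reads, matched a Prickle2 exon.

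No near-cut family was found in both replicates of a site, yet the segments overlapped. At Site 9, 18 of the 30 families of replicate 1 and 8 of the 9 families of replicate 2 overlapped a segment of the other replicate. Much of this overlap lay on a repeat next to the cut, described below: 13 of the 39 families reached into it, 12 of them in replicate 1, and without these 13 families 6 of 18 and 7 of 8 overlapped. At Site 7 this held for 2 of the 2 families of replicate 1 and 2 of the 11 of replicate 2. At Site 9, 24 families with 52.3% of the near-cut reads ended within 400 bp left of the cut, and without those on the repeat 11 families with 41.1% of the remaining reads did. The segments printed above at chr6:92369785-92369861 and chr6:92369740-92369834 overlap and came from different replicates.

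**Figure D3:**
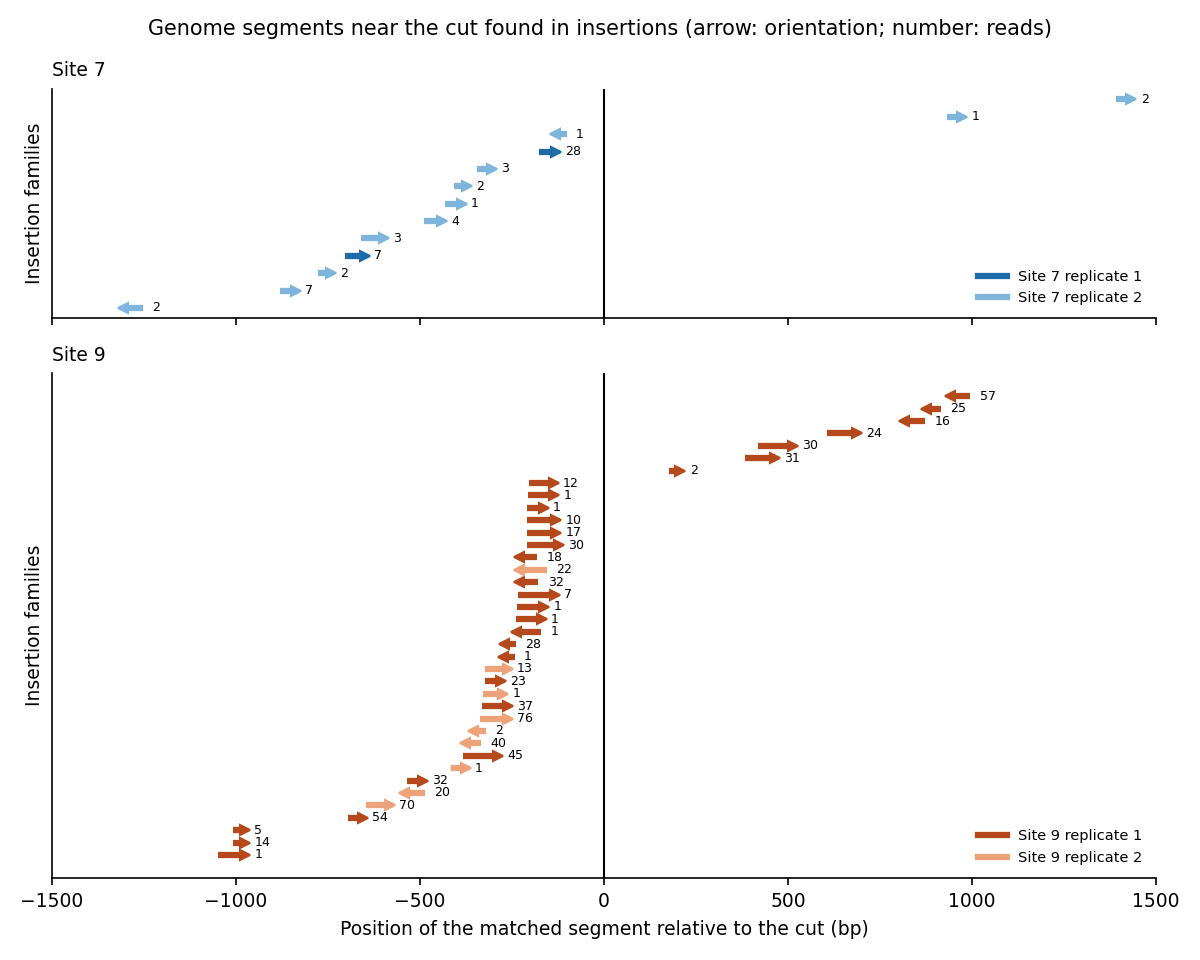
Position of each near-cut segment relative to the cut (x axis, bp; 1 line per insertion family, stacked by position) with an arrow for its orientation, the number of reads beside it and a colour per library. Of the 39 Site 9 families, 24 end within 400 bp left of the cut, 13 of them on the repeat there; a Site 9 family 4274 bp away and the insertions that matched nothing but that repeat are not drawn.

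A repeat of TG and GA units lies at chr6:92369923-92370042, from 199 to 80 bp left of the Site 9 cut. Insertions made of this repeat alone were too simple in sequence for the search of the whole genome. They were found by a search within 5 kb of the cut and counted apart from the segments above. Of the near-cut families above, which had a single best position in the genome, 13 with 153 reads overlapped the repeat as well. Of these 13, 9 did so over at least 50% of their matched bases. A single best position is not a unique match. Near-cut reads at Site 9 came to 558 and 245. Chromosome 6 reads with no other position in the genome came to 427 and 223. Without these 13 families, near-cut segments held 9.62% and 7.23% of insertion reads at Site 9. The insertions made of the repeat alone are shown because they add to the local sources at Site 9, with capitals for the bases that matched the repeat.
chr6:92369928-92369974, plus strand, 45 reads, most in replicate 2: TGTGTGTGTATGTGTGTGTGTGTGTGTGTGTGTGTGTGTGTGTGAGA
chr6:92369936-92370002, plus strand, 45 reads, most in replicate 2: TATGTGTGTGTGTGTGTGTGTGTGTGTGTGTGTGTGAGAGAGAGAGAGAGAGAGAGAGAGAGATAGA
They held 85 reads (1.91%) in Site 9 replicate 1 and 259 reads (8.40%) in replicate 2, all in the direct orientation, and none at Site 7. With them, near-cut sequence held 14.5% and 16.3% of insertion reads at Site 9 (95% Wilson intervals 13.5 to 15.5 and 15.1 to 17.7), against 1.13% and 1.31% at Site 7 (0.811 to 1.56 and 0.911 to 1.89). The Site 9 replicates differed in the segments with a single best position taken alone. They were closer together on this sum, at 15.4% ± 1.31 (SD, n = 2), and the ratio of the site means was 12.6 (exact permutation test, p = 0.333). That the repeat itself supplied the sequence cannot be told apart from other TG and GA repeats of the genome.

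As shares of all insertion reads, matches elsewhere in the genome differed little between the sites. Matches with a single best position beyond 5 kb or on another chromosome held 5.28% and 5.68% of insertion reads at Site 7 and 4.96% and 6.16% at Site 9. A single best position does not mean a unique sequence, as other positions could match less well at 95% identity or more. Where no other position matched, such insertions came to 48, 88, 128 and 80 reads, or 1.54% and 4.13% at Site 7 and 2.88% and 2.59% at Site 9. Insertions with several equally good positions held 4.70%, 3.71%, 3.58% and 5.61%. The 2 sites overlapped in all 3 shares, with site means of 5.48% ± 0.286 and 5.56% ± 0.851 for the matches with a single best position (SD, n = 2 each; exact permutation test, p = 1). Other measures did separate the sites, taking single and several best positions together. As shares of modified reads, again without reads left as unmodified, matches elsewhere held 0.0738% and 0.0361% at Site 7 and 0.0867% and 0.131% at Site 9. In reads under 290 bp the order turned round, with 11.7% and 9.89% of insertion reads at Site 7 and 7.64% and 6.49% at Site 9. On the target chromosome itself, matches with a single best position more than 5 kb from the cut came to 1, 4, 0 and 2 reads, so that near-cut segments were almost all of that chromosome's contribution. The target chromosome held 71.7% and 56.8% of the reads with a single best position at Site 9, against 18.1% and 21.5% at Site 7. Of the reads with no other position it held 76.9% and 73.6% at Site 9 and 43.4% and 27.6% at Site 7, with 36 and 32 reads on it at Site 7 (exact permutation test, p = 0.333). The mitochondrial genome was matched by 0 reads in every library.

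Among the matches elsewhere, 3 named families are printed for what they match. The most abundant at Site 7, with 68 reads in replicate 1, is a sequence of the B1 family, a short interspersed repeat spread by reverse transcription. It matched chr9:96580540-96580603 over all of its 64 bases, but 54064 positions of the genome matched it at 95% identity or more. The Site 9 family was the most abundant genome match of that site, and the Fdps insertion was found by a search of annotated transcripts. Capitals mark bases matched by the genome for B1 and by the transcript for the others.
B1 repeat, 68 reads, Site 7 replicate 1: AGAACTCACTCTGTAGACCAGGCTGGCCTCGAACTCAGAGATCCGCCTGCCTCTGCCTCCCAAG
1810009A15Rik, 96 reads, Site 9 replicate 2: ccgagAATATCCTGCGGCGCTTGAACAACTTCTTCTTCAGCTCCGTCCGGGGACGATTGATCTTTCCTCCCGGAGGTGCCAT
Fdps, 17 reads, Site 7 replicate 1: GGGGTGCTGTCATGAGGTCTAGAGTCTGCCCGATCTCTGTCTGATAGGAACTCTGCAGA
The 82-bp Site 9 insertion matched the spliced transcript of 1810009A15Rik over 77 bp with 1 mismatch, in antisense orientation. Its sequence ran 39 bp to the end of the exon at chr19:8963393-8963454 and went on 33 bp from the start of the next exon at chr19:8963614-8963738, without the intron. The best position in the genome, an unannotated stretch at chr19:12033112-12033185, matched 74 bp with 3 mismatches. The 59-bp Site 7 insertion matched the transcript of Fdps, which encodes farnesyl diphosphate synthase of isoprenoid synthesis, over its full length without a mismatch, also in antisense orientation. Of these bases, 52 lay at the edge of the exon at chr3:88898936-88899024. The best position in the genome was the gene Gm3571 on chromosome 10, which matched all 59 bp with 1 mismatch. These 2 families were each found in 1 library.

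Few insertions were shared between libraries. The replicates of Site 7 shared 5 families, 1.91% of those of replicate 1 and 0.790% of those of replicate 2. The replicates of Site 9 shared 8 families, 2.996% and 4.82% of their lists, and all 8 were direct copies of the amplicon. Only 4 families, with 20 reads, were found at both sites. No exact inserted sequence occurred at both sites, and 2 and 5 exact sequences were shared by the replicates of Site 7 and Site 9.

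Whole families were rarely shared, but insertions with no match held stretches in common across the sites. An exact run of at least 20 bp was shared with an unmatched insertion of the other site in 64.7% and 60.6% of unmatched reads at Site 7 and 63.97% and 59.0% at Site 9. Such runs linked 1043 of the 1357 distinct unmatched sequences (76.9%) into a single connected set, and the next largest set had 12. This set held 82.1%, 81.2%, 66.9% and 65.2% of unmatched reads in the 4 libraries. Insertions that matched the amplicon or the genome shared such runs with the other site in 6.96% of reads at Site 7 and 5.70% at Site 9, nearly all of them with several genome positions. The sequences without a match are not printed. Whether they come from the plasmids was not tested.

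Over all insertions, the GC content was lower at Site 9. The Site 7 libraries had 52.8% and 55.95% and the Site 9 libraries 46.8% and 46.4%, by bases weighted by reads, against 51.6% and 51.0% in the amplicons. The means were 54.4% ± 2.21 and 46.6% ± 0.2645 (SD, n = 2 each; exact permutation test, p = 0.333). The sources differed in GC content within every library. Insertions without a match had 54.2%, 57.6%, 50.6% and 51.1%, and those with a genome match 46.6%, 46.1%, 41.4% and 40.1%. Direct copies had 44.0% and 44.0% at Site 7 and 37.7% and 49.3% at Site 9.

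Median insertion lengths of the Site 7 libraries, 63 and 58 bp, were like those of the Site 9 libraries, 62 and 60 bp, but the length that could be seen differed. No merged read was longer than 298 bp, and the unedited amplicon filled 223 bp of it at Site 7 and 197 bp at Site 9. An insertion without a deletion could thus reach 75 bp and 101 bp, and the longest without a deletion were 75, 75, 101 and 101 bp. Insertions of 70 to 79 bp held 33.5% and 31.2% of insertion reads at Site 7 and 6.78% and 7.78% at Site 9. Insertions of 80 bp or more held 28.3% and 34.0% of insertion reads at Site 9 and none at Site 7. Reads of 290 bp or more made up 63.0% and 53.0% of insertion reads at Site 7, and 20.7% and 26.6% at Site 9. In shorter reads the Site 7 medians, 46 and 45 bp, fell below those of Site 9, 58 and 49 bp. Among insertions of 40 to 75 bp the order turned round, with Site 7 medians of 62 and 58 bp above those of Site 9, 54 and 47 bp (exact permutation test, p = 0.333 in both cases).

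**Figure D4:**
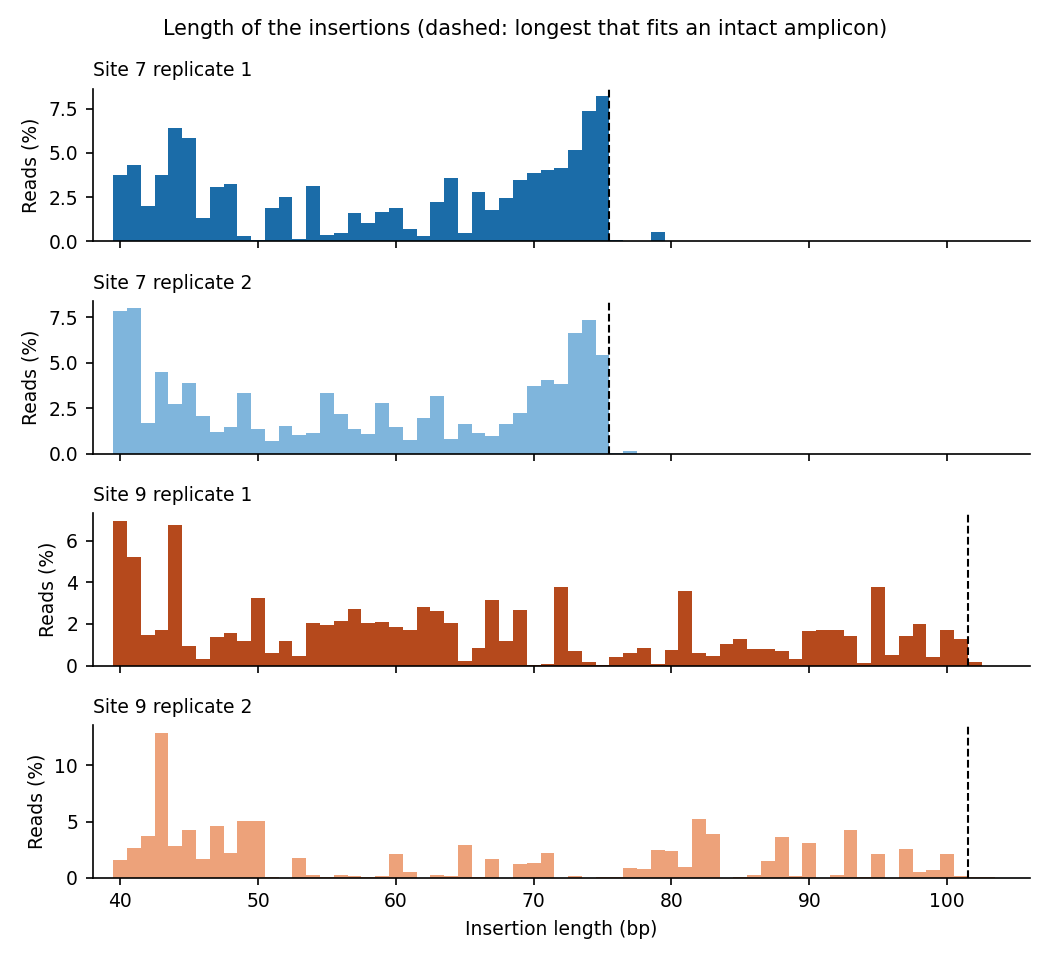
Share of insertion reads (y axis, percent) at each insertion length (x axis, bp), in 1 panel per library; the dashed line marks the longest insertion that fits an intact amplicon in a 298-bp read, 75 bp at Site 7 and 101 bp at Site 9. At Site 7, 33.5% and 31.2% of reads lie at 70 to 79 bp, close to the line.

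The longest reads also differed in how far a genome match reached. In Site 7, genome matches covered at least 90% of the insertion in 50.8% and 51.0% of matched reads of 290 bp or more, and in 94.5% and 94.6% of shorter ones. At Site 9 the shares were 62.1% and 72.8% in the longer reads and 56.3% and 72.0% in the shorter ones. Where a match in a longer read stopped early, it stopped within 10 bp of read position 150 in 22 of 22, 21 of 24, 22 of 23 and 13 of 13 alleles. In shorter reads this held for 3 of 3, 0 of 3, 7 of 29 and 2 of 5 alleles. The sequencing kit allowed 300 cycles in paired ends, and the part of the joining of read pairs in these stops was not tested. In the shorter reads, most matches at Site 7 covered the insertion. There, near-cut segments with a single best position held a mean of 2.27% of insertion reads at Site 7 and 9.48% at Site 9 (n = 2 libraries each).

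**Figure D5:**
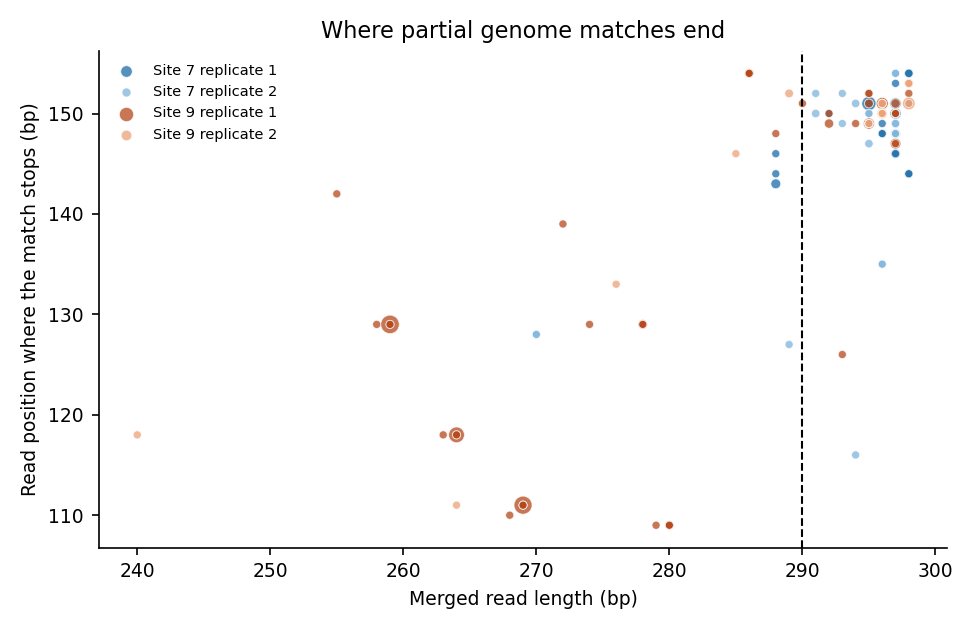
Read position at which a partial genome match stopped (y axis, bp) against the length of the merged read (x axis, bp); each point is an allele, sized by its reads and coloured by library, and the dashed line marks 290 bp. Right of the line nearly all stops lie within 10 bp of position 150.

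In the deposited alignments a deletion accompanied the insertion in 8.82% and 6.62% of reads at Site 7 and 12.8% and 21.8% at Site 9, with medians of 4, 2, 1 and 3 bases and single deletions of at most 20, 13, 15 and 24 bp. Both Site 9 libraries were above both Site 7 libraries, with means of 7.72% ± 1.55 and 17.3% ± 6.34 (SD, n = 2 each; exact permutation test, p = 0.333). The shares depend on how the alignment was drawn. The amplicon was also followed from each end of the read until it stopped matching. By this measure 54.8%, 53.9%, 63.9% and 67.5% of insertion reads had at least 1 base reached from neither end, with medians of 3, 4, 4 and 6. Such bases need not be lost, because a gap, or a mismatch with another close by, also ends the match. Unreached stretches of 10 bases or more were found in 10.1%, 13.4%, 13.3% and 17.02% of insertion reads, and of 50 bases or more in 2.28%, 1.88%, 1.87% and 2.40%. The longest were 144, 182, 186 and 141 bases, against single deletions of at most 24 bp in the deposited alignments. Among near-cut insertions, reads with no deletion in the deposited alignment were 20% of 35 and 78.6% of 28 at Site 7 and 81.5% of 558 and 98.8% of 245 at Site 9. The 35 reads of Site 7 replicate 1 came from 2 families, and the family with 28 reads had a 9-bp deletion.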

How the data were processed

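Genomic DNA amplicons (25 cycles of PCR and 6 more for indices) were sequenced on a MiSeq. Per the study's methods and the submitters' processing notes, the authors trimmed reads with Trim Galore 0.3.1 and aligned them to the amplicon (build mm9) with CRISPResso 1.0.8; its settings are not given in the sources used here. The deposited tables give, per allele, the count of reads, their percent of aligned reads and whole-number scores of bases inserted, deleted and substituted. Aligned reads ranged from 380601 to 447620 per library and modified reads from 228849 to 396353. Reads of PCR products without molecular identifiers are not independent molecules, so intervals and floors (3 counts) cover counting error only.

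Inserted sequences were taken from the alignments and searched, in Python 3.11.15, against both amplicons, mm9 and GENCODE transcripts. The search was tested on simulated data (300 sequences). Families were joined with edlib 1.3.9.post1, and intervals used scipy 1.17.1. Sites were compared by exact two-sided permutation tests over libraries (smallest p = 0.333). Nothing states that replicates were separate cultures, so p-values measure the spread between these libraries, which may be technical. The families named are the 5 with most reads at each site, the most abundant of each source and those found at both sites; unmatched ones are given by reads, not by sequence. Further families (near-cut, amplicon, repeat and transcript examples) were chosen after their values were seen. One small set of insertions, which includes the families found at both sites, is not reported here; it was taken out of the unmatched insertions in the report but not in the alternatives. The members and lists were chosen with earlier results of these data known. Alternatives changed the gap minimum, read minimum, denominator, cut window, insertion definition, counting unit, run length, coverage and replicates.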

Additional observations from a re-analysis of the deposited data

How the results depend on the processing

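Directions were kept under all alternatives run for the share of modified reads (Site 9 minus Site 7, 0.251 to 1.07 percentage points), GC content (-9.53 to -6.03), direct copies (1.44 in reads under 290 bp to 16.5 with each distinct insertion counted once), near-cut segments (6.54 to 14.2) and the share of reads with a deletion (2.72 to 15.2). For direct copies, the libraries of the sites overlapped in reads under 290 bp and at a gap minimum of 50 bases (exact permutation test, p = 1 and 0.667). For all local sources the difference was 27.0 points in the report. It was 24.2 in reads under 290 bp, the only alternative run for them, which was added after seeing the data. With the replicate block, which paired the libraries by number, the share of modified reads differed by 0.692 points (exact paired permutation, p = 0.5, the smallest it can give), and no direction changed. The numbers are not stated to mark shared batches. The differences in inverted copies, median length and median bases deleted turned, and the cause was not tested.

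The difference in inverted copies was -0.184 points at a gap minimum of 30 bases, -0.0207 with each distinct insertion counted once, -0.235 with runs of at least 30 bp, -0.0309 in reads under 290 bp (added after seeing the data) and -0.469 to 0.743 when a replicate was left out. The difference in median length, 0.5 bp in the report, ranged up to 11 bp with each distinct insertion counted once (8 bp in reads under 290 bp and 6 bp at a gap minimum of 50 bases). It was -2 bp in alleles of at least 10 reads, -9.5 bp among insertions of 40 to 75 bp (added after seeing the data) and -1 to 2 bp when a replicate was left out. The difference in median bases deleted was 0 at a gap minimum of 30 bases, 0.5 with insertions redefined from the ungapped read, 0.5 with deletions within 10 bp of the insertion only, and -3 to 1 when a replicate was left out.

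In this paragraph unmatched insertions include patchworks and repeats, with 84.7% of insertion reads at Site 7 and 69.2% at Site 9 as the values to compare with, and genome matches held 10.9% and 20.4%. Genome matches held 18.0% of insertion reads at Site 9 at a gap minimum of 30 bases. At a minimum of 50 bases they held 8.94% at Site 7 and 24.0% at Site 9, and unmatched insertions held 87.2% and 66.8%. In alleles of at least 10 reads, matches held 12.5% at Site 7 and unmatched insertions 71.1% at Site 9. Within 10 bp of the cut, matches held 21.6% at Site 9. With each distinct insertion counted once, matches held 10.2% and 22.2% and unmatched insertions 87.0% and 58.5% at Site 7 and Site 9. Where the match had to cover 90% of the insertion, these were 8.26% and 13.3%, and 87.3% and 76.3%. In reads under 290 bp, matches held 13.6% and 17.5%, and unmatched insertions 75.8% at Site 7.

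In alleles of at least 10 reads there were 79, 24, 116 and 59 families, with 0 shared by the replicates of Site 7, 0 by those of Site 9 and 0 between the sites. Redefined insertions gave 264 families in Site 9 replicate 2. Exact sequences numbered 397 and 763 at Site 7 and 453 and 295 at Site 9, of which 2 and 5 were shared by replicates and 0 by the sites. At a minimum of 50 bases 2 families were found at both sites. The mean number of families at Site 7 was 262 to 633 when a replicate was left out. The length of the merged read limits long insertions.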
